A study of Rattus norvegicus with 4 samples.

Results

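Classical monocytes of rat blood were picked out of 4 droplet single-cell RNA-seq libraries by 3 of their genes, *Fcnb*, *Fn1* and *Vcan*. A UMI, or unique molecular identifier, tags 1 captured RNA molecule. Barcodes were kept with 500 or more UMIs, 200 or more genes and no more than 20% mitochondrial UMIs. A kept barcode was called a classical monocyte if the 3 genes together had at least 4 UMIs, *Cd3e*, *Cd3d* and *Cd3g* together at most 1, *Cd79b* and *Ms4a1* together at most 1, *Camp* none, and hemoglobin genes under 40% of its UMIs. The rule found 938 cells among 45986 kept barcodes, namely 429 in MSC-i.v, 127 in MSC-i.t, 72 in SCI and 310 in Sham. *Fcnb*, *Fn1* and *Vcan*, and the UMI counts of the genes that exclude other cells, are the values the members were chosen by, so their levels are a description and support nothing here.

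The study gave umbilical cord mesenchymal stromal cells (MSC) to rats with a contusion injury of the spinal cord made by Allen's weight drop. MSC-i.v animals received 30000000 cells/kg into a vein, MSC-i.t animals 10000000 cells/kg into the spinal canal, both in 2 doses, one at 72 hours and one at 7 days from injury. SCI animals had the injury without cells and Sham animals were the sham group. There were 40 rats, 10 per group, and the design text describes all 40 as injured, the sham group included, so what the sham group underwent is not clear from it. Blood was the tissue in every group, and strain, sex, age and time of the draw are not given in the sources used here. The doses of MSC-i.v and MSC-i.t differ, so route and dose cannot be told apart. Each group has 1 library, and how many rats it pools is not stated. No difference below therefore has a replicate check, no p-value is given, and each interval is an exact 95% interval that covers counting error only. The names of the deposited SCI data carry another time tag than those of the other 3 libraries, so injury, time of draw and library cannot be told apart in any comparison with SCI.

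Monocytes are made in the bone marrow and released into blood as classical cells, which enter injured tissue and become macrophages or cells that resemble dendritic cells. Cells that stay in blood can convert to nonclassical monocytes, which patrol the vessel wall, lose the classical genes and take on others such as *Spn* and *Cx3cr1*. *Fcnb* encodes ficolin B, a secreted lectin that starts the complement pathway, *Fn1* encodes fibronectin and *Vcan* encodes versican, a matrix proteoglycan. After spinal cord injury, blood monocytes are one source of the macrophages in the lesion.

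Genes for which the results bear on shared promoter letters are shown first. The RT1 genes encode rat MHC class II, the proteins that present peptides to CD4 T cells. RT1-Ba and RT1-Bb encode the alpha and beta chains of the RT1.B molecule, and RT1-Da and RT1-Db1 those of RT1.D. Their promoters carry a Y box, the site of the factor NF-Y and part of the module at which the class II transactivator works. The 150 bases before the RefSeq start of each gene are printed for assembly GRCr8, 5′ to 3′ on the gene's strand, with the letters CTGATTGG in capitals.
RT1-Db1, chr20:4560163-4560312, minus strand: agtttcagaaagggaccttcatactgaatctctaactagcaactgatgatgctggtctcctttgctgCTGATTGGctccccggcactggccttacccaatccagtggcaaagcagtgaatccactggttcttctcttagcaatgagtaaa
RT1-Da, chr20:4515265-4515414, plus strand: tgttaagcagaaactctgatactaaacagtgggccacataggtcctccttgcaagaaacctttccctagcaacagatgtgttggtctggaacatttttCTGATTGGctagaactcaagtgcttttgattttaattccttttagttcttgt
RT1-Bb, chr20:4604119-4604268, minus strand: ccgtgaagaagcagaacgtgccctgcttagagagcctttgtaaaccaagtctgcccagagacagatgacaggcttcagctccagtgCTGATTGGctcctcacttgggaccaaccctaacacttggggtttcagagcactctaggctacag
RT1-Ba, chr20:4576907-4577056, plus strand: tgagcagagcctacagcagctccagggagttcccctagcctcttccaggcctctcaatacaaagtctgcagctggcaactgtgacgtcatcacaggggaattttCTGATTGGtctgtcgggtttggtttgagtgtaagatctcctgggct

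The capitals begin 83, 52, 64 and 46 bases before the start of *RT1-Db1*, *RT1-Da*, *RT1-Bb* and *RT1-Ba*. Counting both strands of windows of 300 bases (250 before and 50 after the start), 3.50% of 33469 RefSeq promoters held these letters. Of 10 genes on the MHC class II list, 8 had a promoter in the table and 5 of these held the letters, the other 3 (*Cd74*, *RT1-DMa* and *RT1-DOb*) being without them. *Irf7* and *Bst2* stand for the type I interferon list, whose genes often carry an interferon-stimulated response element. *Irf7* encodes the factor that amplifies interferon production, and *Bst2* encodes tetherin, which holds budding viruses at the cell surface. Capitals mark GAAA, any 2 bases, then GAAA again, on either strand, and in *Bst2* a pair of matches overlaps.
Irf7, chr1:205800024-205800173, minus strand: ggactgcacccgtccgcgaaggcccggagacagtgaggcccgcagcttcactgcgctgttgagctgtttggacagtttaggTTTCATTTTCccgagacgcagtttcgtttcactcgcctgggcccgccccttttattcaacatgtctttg
Bst2, chr16:18254968-18255117, minus strand: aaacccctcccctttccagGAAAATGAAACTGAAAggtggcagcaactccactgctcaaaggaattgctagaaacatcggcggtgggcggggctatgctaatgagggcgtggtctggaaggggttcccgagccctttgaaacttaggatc

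These letters stood in 3.92% of all promoters and in 16 of 22 interferon list members with a promoter in the table, among them *Oas1a*, *Ifit3* and *Oasl2*, while *Mx1*, *Oasl* and *Herc6* were without them. A match of letters is a description of the sequence and shows no binding.

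The members carried the RNA of monocytes in every library. Levels are given in CPM, the UMIs of a gene per 1000000 UMIs summed over the members of a library. *Lyz2*, which encodes the lysozyme of myeloid cells, was at 41106 CPM in MSC-i.v, 47200 in MSC-i.t, 39734 in SCI and 44362 in Sham. *Tyrobp*, the adaptor of activating myeloid receptors, lay between 6156 CPM in SCI and 6300 CPM in MSC-i.v. *Cd14*, the endotoxin co-receptor, was at 112, 123, 131 and 134 CPM in MSC-i.v, MSC-i.t, SCI and Sham. *Hopx*, a homeodomain protein, was at 3764, 4142, 3073 and 3998 CPM in the same order of libraries. These 4 genes varied little between libraries. *Ccr2*, the receptor by which classical monocytes leave the marrow, was nearly undetected, with 8, 4, 2 and 9 UMIs in MSC-i.v, MSC-i.t, SCI and Sham. Marker lists of other cells were checked in the same sums. The 9 T cell markers found summed to 39.0 to 61.1 CPM, the 9 B cell markers to 48.5 to 58.3 CPM, and the 6 basophil and mast cell markers to at most 2.59 CPM over the 4 libraries. The rule caps *Ms4a1*, *Cd79b* and the CD3 genes in each cell, so their low levels are no check. *Cd79a*, a B cell gene that the rule did not use, had at most 3 UMIs in any library. NK and cytotoxic genes summed to 138 to 288 CPM, dendritic cell genes to 457 to 701 CPM and neutrophil genes to 410 CPM in SCI up to 1949 CPM in Sham. Platelet genes were present, summing to 2224 CPM in MSC-i.v, 4166 in MSC-i.t, 3048 in SCI and 2812 in Sham over 13 markers. Erythroid genes summed to 24176 CPM in MSC-i.v, 1631 in MSC-i.t, 1942 in SCI and 16582 in Sham over 10 markers. In MSC-i.v 16 members, and in Sham 7 members, had at least 5% hemoglobin UMIs, and they held 84.3% and 87.5% of the hemoglobin UMIs of their libraries' members.

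The cells near the limit of the rule were of another kind than those far above it. In the stratum with at least 32 UMIs of the 3 genes, *Lyz2* was at 48037, 52305, 51842 and 48732 CPM in MSC-i.v, MSC-i.t, SCI and Sham. In the stratum with 4 to 7 UMIs it was at 19383, 18863, 19568 and 18779 CPM in the same libraries. *Csf1r*, the receptor of the growth factor M-CSF, ran the other way, at 450 to 567 CPM in the upper stratum and 1328 to 1740 CPM in the lower. *Fcgr3a*, the low-affinity IgG receptor of nonclassical monocytes, was at 204 to 306 CPM in the lower stratum and at most 7.53 CPM in the upper, with 0 UMIs there in SCI. Nonclassical monocytes, taken as barcodes that passed the same exclusions with at most 1 UMI of the 3 rule genes and at least 4 of *Fcgr3a* and *Csf1r*, had *Lyz2* at 11900 to 13684 CPM. The cells with 4 to 7 UMIs lay nearer to these than to the upper stratum, so the name classical monocyte holds less well for them. In the stratum with 8 to 31 UMIs *Lyz2* was at 26734, 21373, 23319 and 22747 CPM in MSC-i.v, MSC-i.t, SCI and Sham. These levels also lay nearer to those of nonclassical monocytes, so the name is less sure there too. Just inside the limit, at 4 UMIs, there were 24, 7, 6 and 13 cells in MSC-i.v, MSC-i.t, SCI and Sham, with *Lyz2* at 17581 to 19711 CPM. Just outside it, at 3 UMIs, there were 40, 15, 11 and 22 cells, with *Lyz2* at 13234 to 19305 CPM. The upper stratum held 60.6% of members in MSC-i.v (260 cells), 71.7% in MSC-i.t (91 cells), 45.8% in SCI (33 cells) and 77.1% in Sham (239 cells). The stratum with 4 to 7 UMIs held 16.8%, 12.6%, 25% and 8.71% in the same libraries. The stratum with 8 to 31 UMIs held 22.6%, 15.7%, 29.2% and 14.2%. SCI had the largest share of cells in each of these lower strata. Values for the upper stratum alone are therefore given beside those over all members, for each list described in SCI over Sham and for the class II, interferon and nonclassical lists in the other comparisons.

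**Figure D1:**
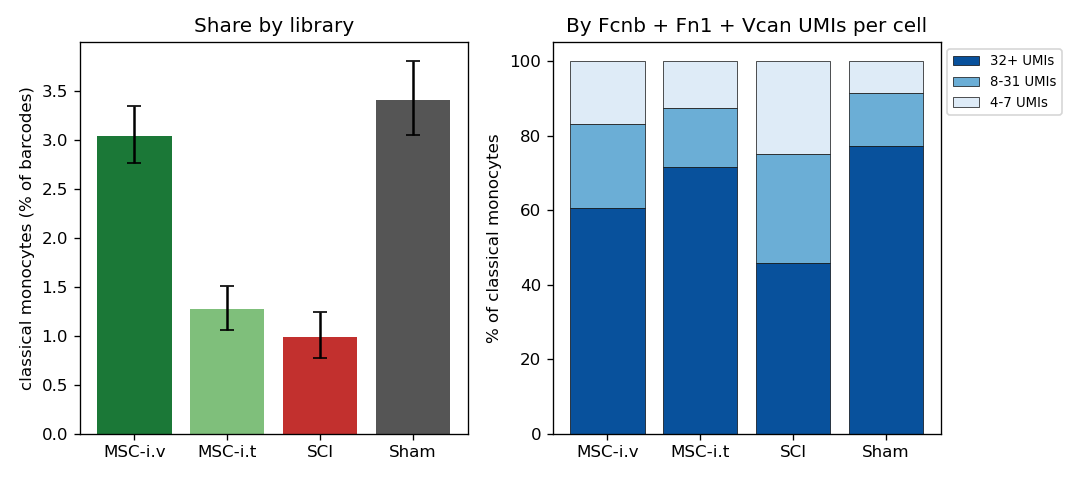
Left, classical monocytes as a percent of kept barcodes with under 40% hemoglobin UMIs in each library, with exact 95% intervals for counting error. Right, percent of the classical monocytes of each library with 4 to 7, 8 to 31, or 32 and more UMIs of the 3 rule genes; MSC-i.v and Sham lie near 3% on the left, and SCI has the smallest top class (45.8%) on the right.

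Members had medians of 5823 UMIs in MSC-i.v, 9213 in MSC-i.t, 7728 in SCI and 7876.5 in Sham, and sums of 2618299, 1154783, 566313 and 2707816 UMIs. The SCI sum is the smallest and sets the precision of every comparison with SCI. Of the kept barcodes, 25 to 49 were shared between any pair of libraries, against 12.2 to 26.9 expected for random draws, and no member barcode was a member in another library.

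Classical monocytes were scarcest in SCI. Over kept barcodes with under 40% hemoglobin UMIs they made up 3.04% in MSC-i.v (2.77 to 3.34), 1.27% in MSC-i.t (1.06 to 1.51), 0.985% in SCI (0.772 to 1.24) and 3.41% in Sham (3.05 to 3.81). The intervals of MSC-i.v and Sham overlap, and so do those of MSC-i.t and SCI, while the first pair lies well above the second. SCI over Sham was at a log2 ratio of -1.79 (-2.18 to -1.42), a share 3.46-fold lower in SCI. MSC-i.v over SCI was at 1.63 (1.26 to 2.01) and MSC-i.v over MSC-i.t at 1.26 (0.97 to 1.56). For MSC-i.t over SCI the log2 ratio was 0.37 (-0.06 to 0.81), an interval that includes no difference and reaches 1.75-fold. That call depended on the limit and the denominator, since the ratio was 0.59 (0.11 to 1.09) with at least 8 UMIs of the rule genes and 0.50 (0.07 to 0.94) over T cells, and neither of these intervals includes 0. Against Sham, MSC-i.t was at -1.42 (-1.73 to -1.12) and MSC-i.v at -0.16 (-0.38 to 0.05). With the upper stratum alone SCI over Sham was at -2.54, MSC-i.t over SCI at 1.01 (0.42 to 1.63) and MSC-i.v over SCI at 2.03.

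The gap lay more in classical than in nonclassical monocytes. Nonclassical monocytes made up 3.38%, 2.13%, 2.27% and 3.42% in MSC-i.v, MSC-i.t, SCI and Sham. Their SCI over Sham log2 ratio was -0.59 (-0.87 to -0.31), and the interval for classical monocytes lies wholly below it. Classical cells formed 47.4% of both kinds together in MSC-i.v (44.1 to 50.7), 37.4% in MSC-i.t (32.2 to 42.7), 30.3% in SCI (24.5 to 36.5) and 49.9% in Sham (45.9 to 53.9). T cells filled the larger part of every library, at 59.9%, 69.8%, 76.3% and 59.8% in the same order, and shares of 1 whole move against each other, so fewer monocytes and more T cells cannot be told apart. Free RNA of the 3 rule genes, measured in barcodes of 10 to 100 UMIs, was at 355, 227, 167 and 544 CPM in MSC-i.v, MSC-i.t, SCI and Sham. Barcodes with at least 2 CD3 UMIs, which should lack these genes, reached 4 UMIs of them in 1.07%, 0.573%, 0.258% and 0.997% of cases, at medians of 3909, 5813, 6074 and 5254 UMIs. Free RNA follows the same order of libraries as the shares, the CD3 values do so except that MSC-i.v is above Sham, and their part in the shares was not tested. After thinning every barcode to 2000 UMIs, with a limit of 2 UMIs of the 3 genes, the shares were 4.58%, 1.64%, 1.33% and 4.70% in MSC-i.v, MSC-i.t, SCI and Sham.

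SCI over Sham was the first comparison of gene levels within classical monocytes and sets the injured library without cells against the sham library. A gene was measured if at least 10 UMIs were expected in the smaller library, and called at a ratio of at least 2-fold. Of 4590 measured genes, 235 (5.12%) were at least 2-fold higher and 100 (2.18%) at least 2-fold lower in SCI, with a median log2 ratio of 0.10 over all of them, against which the ratios below are to be read. With that median set to 0 the counts were 172 higher and 129 lower. With the upper stratum alone they were 97 and 67 of 3264 measured genes, so the counts and medians of several lists there rest on fewer genes.

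MHC class II genes were far lower in SCI. *RT1-Db1* was at 388 CPM in MSC-i.v, 237 in MSC-i.t, 45.9 in SCI and 415 in Sham, a log2 ratio of SCI over Sham of -3.18 (-3.80 to -2.62). *RT1-Da* was at 868, 435, 134 and 852 CPM in the same libraries, a ratio of -2.67 (-3.02 to -2.34). *RT1-Bb* was at 118, 43.3, 15.9 and 137 CPM, and rested on 9 UMIs in SCI. SCI was the lowest library for each of the 3, and the intervals of SCI and Sham do not overlap. These intervals count UMIs and leave out the sampling of cells, so they are too narrow here. In SCI 6 cells held 78.2% of the class II UMIs of the members, and in Sham 66 cells held 95.3%. *RT1-Ba* was at 302, 155, 93.6 and 290 CPM, a SCI over Sham ratio of -1.63, and *Cd74*, the invariant chain that guards the class II groove, at 1291, 928, 546 and 1347 CPM, a ratio of -1.30. Of the 10 listed class II genes, all found, 5 were measured and these 5 were all at least 2-fold lower in SCI, with a median of -2.67, against 2.18% of all genes. *Ciita*, the transactivator, was too rare to measure, with 20, 4, 1 and 26 UMIs in MSC-i.v, MSC-i.t, SCI and Sham, and *RT1-DMa*, which helps load peptides, had none in any library. In the upper stratum 3 of 5 were past 2-fold and the median was -1.88. Class II genes were also lower in the T cells of SCI (median -0.98) and in its nonclassical monocytes (-1.77). With the ratio in T cells subtracted, *RT1-Ba* was at -0.78 and *Cd74* at -0.05, so that 3 of the 5 remained past 2-fold. Free RNA held *RT1-Db1* at 248 CPM in SCI, above its level in the members, and at 386 CPM in Sham. Members of the RT1 family resemble each other, and how reads shared between them were counted is not given in the sources used here.

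Most of the class II RNA sat in a minority of cells. The UMIs of *RT1-Ba*, *RT1-Bb*, *RT1-Da*, *RT1-Db1* and *Cd74* were summed per cell, and cells with at least 20 per 10000 were counted as high, a limit set after the distribution was seen. High cells numbered 82 of 429 in MSC-i.v (19.1%, 15.5 to 23.2), 18 of 127 in MSC-i.t (14.2%, 8.62 to 21.5), 6 of 72 in SCI (8.33%, 3.12 to 17.3) and 66 of 310 in Sham (21.3%, 16.9 to 26.3). The SCI interval just overlaps that of Sham. Within the upper stratum the high cells were 17.7% in MSC-i.v (13.3 to 22.9), 14.3% in MSC-i.t (7.83 to 23.2), 12.1% in SCI (3.40 to 28.2) and 17.2% in Sham (12.6 to 22.5), and all 4 intervals overlap. Among members with 4 to 31 UMIs of the rule genes they were 21.3%, 13.9%, 5.13% (0.627 to 17.3) and 35.2% (24.2 to 47.5) in the same libraries, and there the intervals of SCI and Sham lie apart. High cells held 94.6%, 91.8%, 78.2% and 95.3% of the class II UMIs of MSC-i.v, MSC-i.t, SCI and Sham. In all other cells, which the limit itself keeps under 20 per 10000, the 5 genes summed to 206, 177, 206 and 187 CPM. In the high cells the 5 genes summed to 12900, 9764, 5502 and 12017 CPM. High cells differed from the others in further genes. *Clec10a*, a lectin of monocytes and some dendritic cells, was at 348, 328, 89.2 and 184 CPM in high cells of MSC-i.v, MSC-i.t, SCI and Sham and at 75.7, 67.7, 30.1 and 44.3 CPM in the others. *S100a8* was at 91.3, 102, 193 and 338 CPM in high cells and at 745, 1266, 230 and 1410 CPM in the others. *Lyz2* was at 32920 CPM or more in high cells of every library. The B cell gene *Cd79a* had 0 UMIs in all high cells. Of the dendritic cell genes *Xcr1* had none, *Clec9a* had 5 UMIs in Sham only, and *Flt3* had 3 in MSC-i.v and 2 in Sham, while the other members had 0 UMIs of all 3. *Irf4*, a factor of some dendritic cells, was at 12.3, 20.5, 0 and 10.7 CPM in high cells of MSC-i.v, MSC-i.t, SCI and Sham, on 7, 4, 0 and 7 UMIs, and at 6.83, 3.13, 4.01 and 3.89 CPM in the others. *Cst3*, cystatin C, which dendritic cells hold at high levels, was at 1034, 1541, 907 and 1374 CPM in high cells and at 761, 973, 613 and 983 CPM in the others. High cells of every library had more *Cst3*, and those of 3 libraries more *Irf4*. Neither is on the dendritic cell list used here, and *Cst3* was listed as a gene that monocytes share. Of the dendritic cell list only *Flt3*, *Clec9a*, *Xcr1* and *Clec10a* were counted in high cells. The part of dendritic cells among them was not tested.

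**Figure D2:**
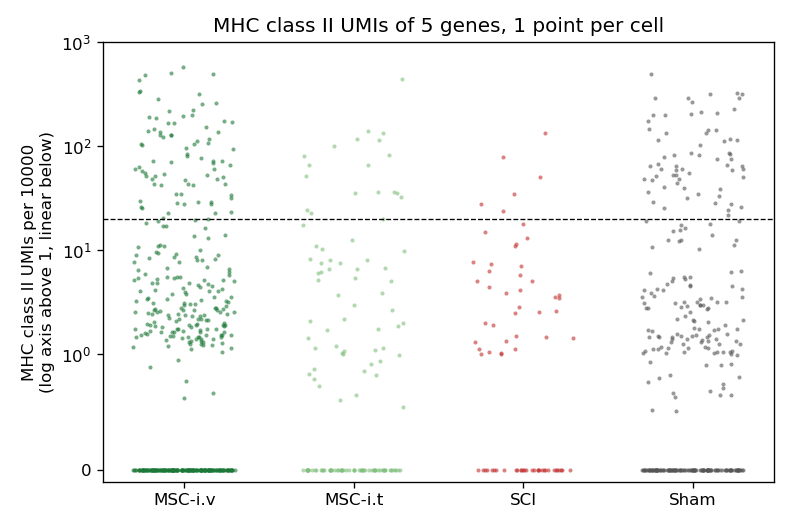
UMIs of RT1-Ba, RT1-Bb, RT1-Da, RT1-Db1 and Cd74 per 10000 UMIs of each classical monocyte (vertical axis, logarithmic above 1 and linear below) by library, 1 point per cell, spread sideways at random. The dashed line marks 20 per 10000, above which lie 82 cells in MSC-i.v, 18 in MSC-i.t, 6 in SCI and 66 in Sham.

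Genes of the type I interferon response were higher in SCI, less so in the upper stratum, where fewer of them were measured. *Mx1*, an antiviral GTPase, was at 46.2 CPM in MSC-i.v, 24.2 in MSC-i.t, 143 in SCI and 39.1 in Sham, a log2 ratio of SCI over Sham of 1.87 (1.43 to 2.30). *Ifit2*, which binds viral RNA, was at 53.5, 46.8, 162 and 61.7 CPM in the same libraries, a ratio of 1.40 (1.01 to 1.77). *Irf7* was at 14.1, 17.3, 35.3 and 12.6 CPM, with too few UMIs to be measured. SCI stood above the other 3 libraries in these genes, with intervals that do not touch for *Mx1* and *Ifit2*. Of 33 listed genes, all found, 20 were measured, of which 7 were at least 2-fold higher (*Mx1*, *Rtp4*, *Lgals3bp*, *Ifit2*, *Ifit3*, *Oasl* and *Oasl2*) and 1, *Rsad2*, lower. Their median was 0.69, against 0.39 in nonclassical monocytes and -0.06 in T cells. In the upper stratum 10 were measured and 1, *Mx1*, was past 2-fold, with a median of 0.51. Among those no longer reaching 10 expected UMIs were *Ifit3*, *Lgals3bp* and *Oasl*. These were at 41.4, 41.4 and 26.6 CPM in SCI and at 19.8, 20.7 and 19.8 CPM in Sham, within the upper stratum. There *Mx1* was at 30.1, 13.4, 91.6 and 33.9 CPM in MSC-i.v, MSC-i.t, SCI and Sham and *Ifit2* at 26.9, 25.8, 68.0 and 37.8 CPM. *Rsad2*, viperin, had 1 UMI in SCI and 59 in Sham and no longer reached 10 expected UMIs once members with at least 5% hemoglobin UMIs were left out. Genes induced by interferon gamma were few, with 15 of 16 found and 7 measured and 2, *Gbp2* and *Igtp*, past 2-fold higher. None of the 6 measured in the upper stratum was past 2-fold, and their median was 0.46.

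**Figure D3:**
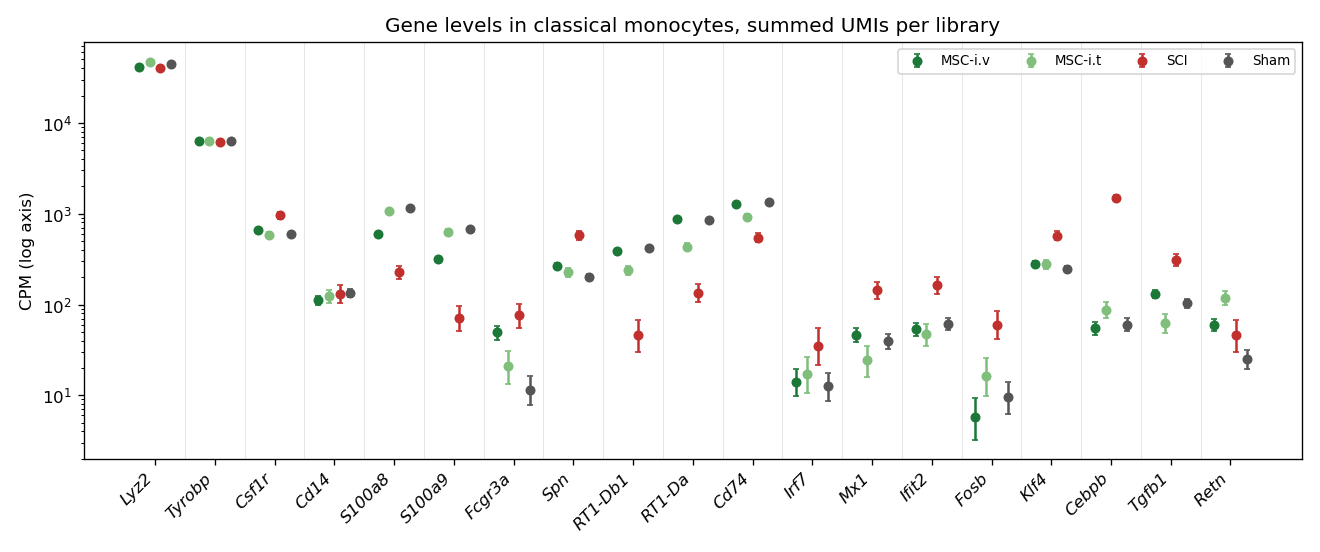
CPM of 19 genes (vertical axis, logarithmic) in the summed UMIs of classical monocytes of each library, with exact 95% Poisson intervals for counting error. Lyz2, Tyrobp and Cd14 lie close together in all 4 libraries, RT1-Db1 and RT1-Da are lowest in SCI, and Mx1, Ifit2, Klf4 and Cebpb are highest in SCI.

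Nonclassical genes were higher in SCI members, whose share of cells near the limit of the rule was also the largest. *Spn*, the sialophorin CD43, was at 263 CPM in MSC-i.v, 225 in MSC-i.t, 579 in SCI and 201 in Sham, a log2 ratio of SCI over Sham of 1.52. *Fcgr3a* was at 49.3, 20.8, 75.9 and 11.4 CPM, a ratio of 2.73, and *Cx3cr1*, the fractalkine receptor, at 42.0, 29.4, 65.3 and 28.8 CPM, a ratio of 1.18. Of 14 listed genes 10 were measured and 6 were past 2-fold higher, with a median of 1.12. In the upper stratum none of the 6 measured was past 2-fold and the median was 0.29. *Spn* stood there at 97.4, 73.2, 160 and 102 CPM.

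Among the 20 classical genes listed, of which 17 were found and 14 measured, the median was -0.10 and 2 were past 2-fold, both lower in SCI. *S100a8*, a subunit of the alarmin calprotectin, was at 603 CPM in MSC-i.v, 1069 in MSC-i.t, 226 in SCI and 1151 in Sham, a log2 ratio of SCI over Sham of -2.35 (-2.61 to -2.09). *S100a9*, its partner, was at 313, 634, 70.6 and 678 CPM, a ratio of -3.26 (-3.75 to -2.81). Neutrophils hold both genes at high levels, and *S100a8* in free RNA was at 319, 186, 46.9 and 639 CPM in MSC-i.v, MSC-i.t, SCI and Sham. In T cells *S100a8* was at 64.5, 3.80, 5.91 and 115 CPM. The part of free RNA in these levels was not tested. The classical list had a median of 0.04 in the upper stratum, with 1 of 14 past 2-fold higher and 2 lower. The order of MSC-i.t and MSC-i.v in the members is the reverse of that in free RNA. *Hp*, haptoglobin, was at 361, 294, 238 and 475 CPM.

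Transcription factors of monocytes and of early response differed between SCI and Sham. *Cebpb*, a factor needed for nonclassical monocytes to survive in mice, was at 55.0 CPM in MSC-i.v, 87.5 in MSC-i.t, 1489 in SCI and 60.2 in Sham, a log2 ratio of SCI over Sham of 4.63 (4.38 to 4.88). It had at least 1 UMI in 100% of SCI members and 33.2% of Sham members, and in 88.6% and 16.3% after thinning to 3000 UMIs. In the upper stratum *Cebpb* was at 33.9, 63.9, 984 and 46.2 CPM in MSC-i.v, MSC-i.t, SCI and Sham. The same ratio was 4.20 in nonclassical monocytes and 3.12 in T cells, where the levels were 4.56 CPM in SCI and 0.527 CPM in Sham. Free RNA held 114 CPM of *Cebpb* in SCI and 14.8 CPM in Sham. *Klf4*, a factor of monocyte differentiation, was at 278, 277, 574 and 247 CPM, a ratio of 1.21, and in T cells it was at -0.38. *Fosb*, an AP-1 subunit, was at 5.73, 16.5, 60.0 and 9.60 CPM, a ratio of 2.64 (1.87 to 3.44) in monocytes and 0.59 in T cells. Of 22 immediate early genes listed, 21 were found and 11 measured, 4 of them past 2-fold higher and none lower, with a median of 0.75 in monocytes and 0.31 in T cells. The upper stratum had 3 of 10 past 2-fold higher, with a median of 0.58.

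Several of the highest SCI ratios were shared with T cells of the same library. *Dapk3*, a kinase of cell death and contraction, was at 4.20 CPM in MSC-i.v, 7.79 in MSC-i.t, 115 in SCI and 5.54 in Sham, a log2 ratio of SCI over Sham of 4.37 in monocytes and 4.38 in T cells. *Cdv3* was at 3.87 and 4.01, *Taf10*, a subunit of TFIID, at 3.00 and 3.53, and *Snx20* at 3.17 and 3.25 in monocytes and in T cells. *Gnas*, the stimulatory G protein, was at 2.87 and 2.78 for the identifier ENSRNOG00000047374, and *Filip1l* at 2.63 and 1.26. Each of these 6 had its highest CPM in SCI among the 4 libraries. At the other end stood 5 class II genes and *Alox15*, *Rsad2* and *Bpgm*. *Alox15*, the lipoxygenase of reticulocytes and macrophages, had 195, 5, 1 and 75 UMIs in MSC-i.v, MSC-i.t, SCI and Sham, up to 50 of them in 1 cell. *Bpgm* makes the red cell metabolite bisphosphoglycerate. Of 11 erythroid genes 10 were found, and all 10 were measured and past 2-fold lower in SCI, as were 9 of 9 in the upper stratum. Without members of at least 5% hemoglobin UMIs, an alternative chosen after the data were seen, *Bpgm* was at -0.26 and *Alox15* no longer reached 10 expected UMIs.

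**Figure D4:**
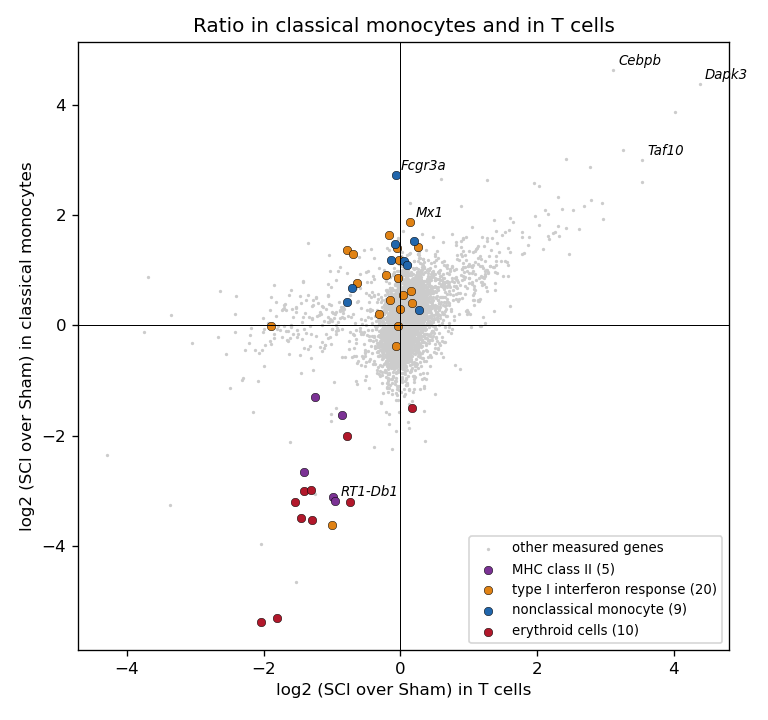
Log2 ratio of SCI over Sham of each measured gene in T cells (horizontal axis) and in classical monocytes (vertical axis), with 4 gene lists coloured. The 5 MHC class II genes lie below 0 on both axes, the erythroid genes lie below 0 on the vertical axis, most interferon genes and the nonclassical genes shown lie above 0 on the vertical axis, and Cebpb, Dapk3 and Taf10 are high on both.

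Further gene lists by function were compared between SCI and Sham. Of 31 pattern recognition, Fc and complement receptors listed, 28 were found and 20 measured, of which *Fcgr3a* was past 2-fold higher and *Clec12a*, an inhibitory lectin, lower, with a median of 0.45, and 0.24 in the upper stratum. *Tlr2*, the receptor of bacterial lipopeptides, was at 82.1 CPM in MSC-i.v, 79.7 in MSC-i.t, 127 in SCI and 64.6 in Sham. *Fcgr1a*, the high-affinity IgG receptor, was at 276, 228, 411 and 212 CPM. *C5ar1*, the receptor of complement C5a, lay between 199 and 223 CPM in all 4 libraries. All 15 lysosomal and antigen processing genes were measured and none was past 2-fold, with a median of -0.06, and 0.12 in the upper stratum. *Ctsb*, a cathepsin, was at 412, 443, 570 and 414 CPM in MSC-i.v, MSC-i.t, SCI and Sham, and *Ifi30*, the lysosomal thiol reductase, at 962, 989, 682 and 959 CPM. Of 22 inflammatory cytokine and NF-kB genes, all found, 12 were measured and 2 were past 2-fold higher, *Nfkbiz* and the NF-kB inhibitor *Nfkbia*. None of the 8 measured in the upper stratum was past 2-fold, with a median of 0.02, and there *Nfkbia* was at 113, 119, 130 and 127 CPM. *Il1b*, the cytokine of the inflammasome, was at 71.0, 61.5, 54.7 and 54.7 CPM. *Tnf* and *Cxcl2* had no UMI in any library and *Il6* had 1, in Sham. Of 24 genes of resolution and alternative activation, all found, 9 were measured and 1, *Tgfb1*, was past 2-fold higher, with a median of -0.01, and likewise 1 of 9 in the upper stratum, with a median of 0.10. *Tgfb1*, the cytokine TGF-beta 1, was at 130, 62.3, 313 and 103 CPM in MSC-i.v, MSC-i.t, SCI and Sham, a SCI over Sham ratio of 1.60 in monocytes and 0.96 in T cells. *Arg1* had at most 2 UMIs in any library and *Cd163* none. Among 20 migration and adhesion genes, 18 were found and 13 measured, and 2, *Cx3cr1* and *Itgal*, were past 2-fold higher. In the upper stratum none of 11 measured was past 2-fold, and the median was 0.19. Neither *Cx3cr1* nor *Itgal* reached 10 expected UMIs there. They were at 35.5 and 47.3 CPM in SCI and at 22.0 and 22.9 CPM in Sham. Of 24 lectin, complement and matrix genes, all found, 9 were measured and none was past 2-fold, with a median of 0.15, against 1 of 9 past 2-fold higher in the upper stratum, with a median of 0.07. Of 15 glucocorticoid response genes, all found, 8 were measured and 3 (*Ddit4*, *Nfkbia* and *Klf9*) were past 2-fold higher, with a median of 0.72 in monocytes and 0.63 in T cells. None of the 5 measured in the upper stratum was past 2-fold, with a median of 0.08. *Ddit4* and *Klf9* no longer reached 10 expected UMIs there. They were at 68.0 and 47.3 CPM in SCI and at 19.4 and 21.1 CPM in Sham.

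MSC-i.t over SCI sets the library of animals given intrathecal cells against that of injured animals without cells. Both comparisons with SCI as the denominator share that library with SCI over Sham, so opposite signs between them are no separate evidence. Of 4622 measured genes, 92 (1.99%) were at least 2-fold higher and 283 (6.12%) at least 2-fold lower in MSC-i.t, with a median of -0.09. With the ratio in T cells subtracted, the counts were 108 and 106. The class II genes measured numbered 5, and 3, *RT1-Db1*, *RT1-Da* and *RT1-Bb*, were past 2-fold higher in MSC-i.t, at 2.37 (1.79 to 3.01), 1.70 (1.35 to 2.06) and 1.45 (0.41 to 2.66). *RT1-Ba* was at 0.73 and *Cd74* at 0.77. The list median was 1.45 in monocytes, 1.40 in nonclassical monocytes and -0.14 in T cells, and 0.73 in the upper stratum, where 2 of 5 were past 2-fold. Against Sham the same list was at -0.91, where of 6128 measured genes 49 (0.8%) were at least 2-fold higher and 105 (1.71%) at least 2-fold lower in MSC-i.t. Interferon genes were lower in MSC-i.t, 11 of 19 measured past 2-fold lower and none higher, with a median of -1.03, and -0.49 in the upper stratum with 2 of 10 past 2-fold. *Mx1* was at -2.56, *Isg15*, a ubiquitin-like protein, at -2.37 and *Ifit2* at -1.80, while *Bst2* was at -0.60. Nonclassical genes had 6 of 11 measured past 2-fold lower, with a median of -1.01, and -0.42 in the upper stratum. *S100a8* was at 2.24 and *S100a9* at 3.17, both higher in MSC-i.t.

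Further genes had high or low ratios of MSC-i.t over SCI. *Retn*, resistin, was at 59.6 CPM in MSC-i.v, 119 in MSC-i.t, 45.9 in SCI and 25.1 in Sham, a log2 ratio of MSC-i.t over SCI of 1.37 (0.76 to 2.03) and of MSC-i.t over Sham of 2.24 (1.81 to 2.68). Nonclassical monocytes had *Retn* at 35.4 CPM (MSC-i.t) and 39.8 CPM (Sham). Their log2 ratio of MSC-i.t over SCI was -1.03, the opposite sign to that in classical monocytes. In the upper stratum of classical cells it was at 59.7, 137, 59.1 and 24.2 CPM in MSC-i.v, MSC-i.t, SCI and Sham. MSC-i.t was the highest library, with an interval apart from each of the other 3. *Clec10a* was at 135, 112, 37.1 and 77.9 CPM, *Cmc1*, a mitochondrial assembly protein, at 94.7, 161, 54.7 and 105 CPM, and *Serpinb1a*, an inhibitor of neutrophil proteases, at 794, 996, 542 and 781 CPM. SCI was the lowest library for each of these. For *Serpinb1a* the log2 ratio of MSC-i.t over SCI was 0.88 in monocytes and 0.89 in T cells. *Plp2* and *Polr2i* complete the 8 highest, on 8 and 3 UMIs in SCI. Among the lowest were *Cebpb* (-4.09), *Taf10*, *Cdv3*, *Dapk3*, *Snx20*, *Gnas* and *Bri3* (-2.46), and in T cells their ratios lay between -4.63 and -2.97. Platelet genes were also highest in MSC-i.t, where 57 of 127 members (44.9%) had at least 2 UMIs of *Gp9*, *Itga2b*, *Gp1bb*, *Npy* and *Tubb1*, against 16 of 72 (22.2%) in SCI, with 94 of 429 (21.9%) in MSC-i.v and 111 of 310 (35.8%) in Sham.

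MSC-i.v over SCI sets the library of animals given intravenous cells against the same SCI library. Of 4539 measured genes, 81 (1.78%) were at least 2-fold higher and 193 (4.25%) at least 2-fold lower in MSC-i.v, with a median of -0.12, and 100 and 136 with that median set to 0. All 5 class II genes measured were past 2-fold higher, from *Cd74* at 1.24 (1.07 to 1.41) to *RT1-Db1* at 3.08 (2.52 to 3.70), with a median of 2.69, and 1.39 in the upper stratum with 3 of 5 past 2-fold. The same median was 2.66 in nonclassical monocytes and 1.05 in T cells. Against Sham, *RT1-Da* was at 0.03 (-0.06 to 0.11), *RT1-Db1* at -0.10 (-0.22 to 0.03), *RT1-Ba* at 0.06 (-0.09 to 0.20), *RT1-Bb* at -0.22 (-0.44 to 0.01) and *Cd74* at -0.06 (-0.13 to 0.01). Each of these intervals includes 0. Over 7552 genes measured in MSC-i.v and Sham, 69 (0.914%) were at least 2-fold higher and 101 (1.34%) at least 2-fold lower in MSC-i.v. Interferon genes had 10 of 21 measured past 2-fold lower and 1, *Rsad2*, higher, with a median of -0.99, and -0.79 in the upper stratum with 3 of 9 past 2-fold. *Bst2* was at -1.69 and *Mx1* at -1.63. Nonclassical genes had 3 of 12 past 2-fold lower, with a median of -0.68, and -0.36 in the upper stratum. *S100a8* was at 1.41 and *S100a9* at 2.15, where free RNA and T cells also had more of both. The other highest genes were *Alox15*, *Rsad2*, *Bpgm* and *Clec10a*, the last at 1.86 (1.23 to 2.57). All 10 measured erythroid genes were past 2-fold higher in MSC-i.v as well, with a median of 3.74. Without members of at least 5% hemoglobin UMIs *Bpgm* was at 0.18. Among the lowest were *Cebpb* (-4.76), *Dapk3*, *Taf10*, *Snx20*, *Gnas*, *Purb* and *Jund* (-2.57), with T cell ratios between -4.35 and -2.20.

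**Figure D5:**
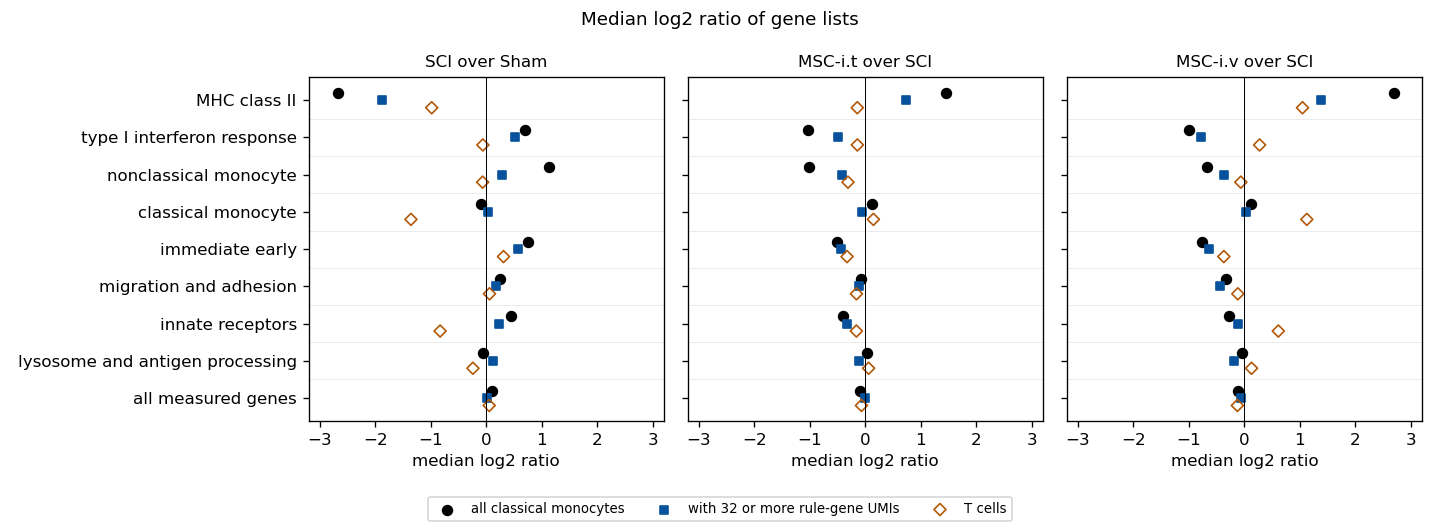
Median log2 ratio of the measured members of 8 gene lists and of all measured genes (horizontal axes) in 3 comparisons, over all classical monocytes (circles), over those with 32 or more UMIs of the rule genes (squares) and over T cells (diamonds). MHC class II lies farthest from 0 in each panel (-2.67, 1.45 and 2.69 over all classical monocytes), and the squares of the interferon and nonclassical lists lie closer to 0 than the circles.

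MSC-i.v over MSC-i.t sets the routes side by side at their different doses. Of 6102 measured genes, 120 (1.97%) were at least 2-fold higher and 65 (1.07%) at least 2-fold lower in MSC-i.v, and with the ratio in T cells subtracted 99 and 151. The 5 class II genes were at 0.48 for *Cd74* (0.38 to 0.58) up to 1.45 for *RT1-Bb* (1.01 to 1.91), with a median of 0.96, and the T cell median was 1.07. Among upper stratum cells none of the 5 was past 2-fold and the median was 0.12. There, interferon genes had a median of 0.05, with 3 of 22 past 2-fold higher and 1 lower, and nonclassical genes one of 0.16, with none of 8 past 2-fold. *Bst2* had 141 CPM (MSC-i.v) and 299 CPM (MSC-i.t), a log2 ratio of -1.08 (-1.30 to -0.87) in classical monocytes, -1.27 in nonclassical monocytes and -0.32 in T cells. *RT1-A1*, a class I heavy chain, had 349 CPM (MSC-i.v) and 654 CPM (MSC-i.t), a ratio of -0.90 (-1.04 to -0.76). Both were lower in MSC-i.v. *Cebpd*, a factor of the acute phase, was at 176 CPM in MSC-i.v, 62.3 in MSC-i.t, 162 in SCI and 91.2 in Sham, 2.82-fold higher in MSC-i.v than in MSC-i.t, and the T cell log2 ratio was 2.32. *Retn* was at -0.99 (-1.33 to -0.65) and *Tgfb1* at 1.06 (0.69 to 1.45). *Cd52*, a surface glycopeptide, had 52 UMIs in MSC-i.v and none in MSC-i.t. Its log2 ratio was 2.93 with 3 UMIs taken as the floor of MSC-i.t, and the lower bound of its interval was 2.58. In T cells the ratio was 1.09. The remaining high genes, *Alox15*, *Rsad2*, *Rhd*, *Bpgm*, *Glrx5* and *Scand1*, lay between 1.44 and 4.10 and were higher in the T cells of MSC-i.v too, by 0.87 to 1.80. All 10 measured erythroid genes were also past 2-fold higher in MSC-i.v, with a median of 3.80. At least 5% hemoglobin UMIs were found in 16 members of MSC-i.v and 0 of MSC-i.t. Without such members, an alternative chosen after the data were seen, 6147 genes were measured. Of these, 117 were at least 2-fold higher and 57 at least 2-fold lower in MSC-i.v. The part of such members in the ratios of single genes is not given here. Among the low genes, *Myl9* (-1.15), *Nrgn* (-0.95) and *Cd9* (-0.87) are also platelet genes. Members with at least 2 UMIs of the 5 platelet genes named above were 21.9% in MSC-i.v and 44.9% in MSC-i.t. That limit is in raw UMIs, and members had medians of 5823 and 9213 UMIs. Of the remaining members 59.7% and 51.4% had *Pf4*, another platelet gene. The part of platelet RNA in these ratios was not tested. *Patz1*, *Mocs1* and *Gadd45g* lay between -1.65 and -1.61, on 20 to 32 UMIs in MSC-i.v.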

How the data were processed

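The authors deposited raw UMI counts of 25340 genes in 6794880 barcodes per library. Per the file headers the matrices come from Cell Ranger 4, and the submitters' processing notes name the build mRatBN7.2. The labels' extraction protocol describes a bulk preparation and was not used. Library totals were 63133881 to 91124523 UMIs. Members and gene lists were chosen with earlier results of these data known. UMIs of members were summed per library and divided by their total (CPM), without further normalization. Shares have Clopper-Pearson, CPM Poisson and ratios conditional binomial intervals at 95% (scipy 1.17.1, numpy 2.4.6, Python 3.11.15). A count of 0 was set to a floor of 3 UMIs per library. Nothing was fitted across libraries, so no test was run. T cells had at least 2 CD3 UMIs, at most 1 UMI each of the rule genes, of the B cell pair and of *Fcgr3a* with *Csf1r*, and under 40% hemoglobin. Named genes were the 8 highest lower bounds and the 8 lowest upper bounds of the interval in each comparison, leaving out genes without their own symbol, ribosomal, mitochondrial, hemoglobin, immunoglobulin, T cell receptor, Y-linked and rule genes, *Xist* and markers of other cells, plus list members with described roles, picked after their values were seen; some genes that met the rule are not reported here. List symbols missing from the deposited names were sought in RefSeq for GRCr8. Scrublet in scanpy 1.11.5 called 6.60%, 0%, 1.74% and 0.0195% of barcodes doublets in MSC-i.v, MSC-i.t, SCI and Sham, so it did not work in MSC-i.t and Sham, and no call was removed. The ratio step was tested on simulated data.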

Additional observations from a re-analysis of the deposited data

How the results depend on the processing

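Of 32 recomputed share ratios, 29 stayed within the counting interval; the other 3 were those with at least 32 UMIs of the rule genes, at -2.54 for SCI over Sham, 1.01 for MSC-i.t over SCI and 2.03 for MSC-i.v over SCI, a limit chosen after seeing the data. The count of genes past 2-fold, 335, 375, 274 and 185 for SCI over Sham, MSC-i.t over SCI, MSC-i.v over SCI and MSC-i.v over MSC-i.t, was 102, 114, 84 and 41 with at least 30 expected UMIs and 1894, 2045, 1790 and 1416 with 1 UMI in each library. It was 115, 92, 88 and 87 without members that had any UMI of 10 markers of other cells, which left 101, 26, 15 and 46 cells in MSC-i.v, MSC-i.t, SCI and Sham. With at least 32 UMIs of the rule genes it was 164, 189 and 153 in the first 3 comparisons, with fewer cells and genes measured. For MSC-i.t over SCI it was 214 with the ratio in T cells subtracted. With Sham as the reference it was 154 for MSC-i.t and 170 for MSC-i.v, and signs turned for the MHC class II median (-0.91 in MSC-i.t, -0.062 in MSC-i.v), in MSC-i.t for *RT1-Db1* (-0.81), *RT1-Da* (-0.97) and *Cebpb* (0.54), and in MSC-i.v for *RT1-Db1* (-0.10), *RT1-Bb* (-0.22) and *Snx20* (0.13). Subtracting the ratio in T cells turned the sign for SCI over Sham of *Dapk3* (-0.0036), *Cdv3* (-0.14), *Taf10* (-0.53) and *Snx20* (-0.081), for MSC-i.t over SCI of *Serpinb1a* (-0.017), *Dapk3* (0.49), *Gnas* (0.027) and *Bri3* (0.51), for MSC-i.v over SCI of *Taf10* (0.093), *Snx20* (0.13) and *Purb* (0.80), and for MSC-i.v over MSC-i.t of *Cebpd* (-0.82). Besides these 18 named-gene values and 2 list medians that turned, a further 79 named-gene values and 79 list medians left the counting interval (for a median, that of its middle gene). Of these, 30 and 27 did so with the ratio in T cells subtracted, 22 and 14 with Sham as the reference, 12 and 12 with at least 32 UMIs of the rule genes, and 8 and 16 without members that had any UMI of 10 markers of other cells. No paired analysis was possible because the labels give no replicate numbers and each group has 1 library, and no replicate could be left out. The cause of these moves was not tested beyond what each setting removes. Depth limits SCI most, since its 72 members hold 566313 UMIs.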
